A study of Drosophila melanogaster with 3 samples.

Results

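The regions described here are 802 of the 7476 thresholded Nf-YC peaks of whole Drosophila melanogaster embryos (10.7%). They were selected on their summits. A thresholded peak was kept where the lists of replicates 1 and 2 each held a summit within 100 bp of its own summit and the list of replicate 3 held none. The other thresholded peaks comprised 6048 with a summit in all 3 lists (80.9%), 222 that lacked one in replicate 1 alone, 216 that lacked one in replicate 2 alone, and 188 others. The study was a chromatin immunoprecipitation and sequencing (ChIP-seq) experiment with 3 biological replicates in 1 group and no second condition. The embryos were mixed-sex, 0 to 18 h old, and came from a transgenic fly line that stably expressed Nf-YC with green fluorescent protein (GFP) fused to its C terminus. Chromatin was recovered with an antibody against GFP. The promoter that drove the transgene is not given in the sources used here, and whole embryos of this age range mix all tissues and many stages.

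NF-Y is a trimer that binds the sequence CCAAT, and Nf-YC is one of its histone-fold subunits. Nf-YB and Nf-YC pair in the manner of core histones, and Nf-YA joins the pair and reads the base sequence. NF-Y sites are known mainly from promoters, close upstream of transcription start sites (TSSs).

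The selection measured the position of a summit, and for many members that was not the same as a lack of signal in replicate 3. In 364 of the 802 (45.4%) the summit lay inside a peak interval of replicate 3 whose own summit was elsewhere, a median of 135.5 bp away. These are called covered members below. The other 438 (54.6%) were uncovered, and 163 of those had a replicate 3 summit within 500 bp, at a median of 218 bp. The remaining 275 (34.3% of the members) had no replicate 3 summit within 500 bp and are called isolated. Only this last class lacked a nearby replicate 3 peak in the plain sense of the word absent.

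The sequences of 6 of the strongest members are shown. They are the 6 with the highest pooled signal whose window of 50 bases either side of the summit overlapped no annotated exon, with 1 chromosome arm left out. A replicate 3 interval covered each of these 6 summits while the replicate 3 summit lay elsewhere, which was not a condition of the choice. The sequences were read from the forward strand of the Release 6 (dm6) genome. Capitals mark CCAAT or, for the other strand, ATTGG. They also mark AGAGAG or, for the other strand, CTCTCT, as well as TATCGATA, which reads the same on both strands. CCAAT is the NF-Y box, AGAGAG is a GA repeat of the kind bound by GAGA factor, and TATCGATA is the DNA replication-related element bound by Dref.
ct, chrX:7627284-7627384: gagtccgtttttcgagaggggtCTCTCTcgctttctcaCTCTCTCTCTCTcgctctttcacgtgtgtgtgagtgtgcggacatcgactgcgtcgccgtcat
heca, chr3R:30271174-30271274: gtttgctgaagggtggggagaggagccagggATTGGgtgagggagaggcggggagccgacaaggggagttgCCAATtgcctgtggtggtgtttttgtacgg
bab1, chr3L:1102639-1102739: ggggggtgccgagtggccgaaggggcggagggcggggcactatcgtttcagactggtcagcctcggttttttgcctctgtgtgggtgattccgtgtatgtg
CG15629, chr2L:4810446-4810546: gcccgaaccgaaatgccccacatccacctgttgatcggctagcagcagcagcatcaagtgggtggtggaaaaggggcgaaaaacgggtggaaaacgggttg
CG11811, chr3L:10683080-10683180: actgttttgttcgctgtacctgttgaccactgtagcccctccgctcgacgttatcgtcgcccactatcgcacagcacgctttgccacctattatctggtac
spi, chr2L:19575726-19575826: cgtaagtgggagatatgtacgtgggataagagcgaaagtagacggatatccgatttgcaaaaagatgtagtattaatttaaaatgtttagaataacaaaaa
The window near heca held 2 NF-Y boxes, and the windows near ct, bab1, CG15629, CG11811 and spi held 0. The wider window of 100 bases either side, used for all shares below, also held CCAAT near ct. The strongest peaks with a summit in all 3 lists, chosen in the same way, were near toy and opa.
toy, chr4:989535-989635: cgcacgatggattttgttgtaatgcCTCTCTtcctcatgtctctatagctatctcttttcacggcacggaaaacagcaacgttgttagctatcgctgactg
opa, chr3R:4852496-4852596: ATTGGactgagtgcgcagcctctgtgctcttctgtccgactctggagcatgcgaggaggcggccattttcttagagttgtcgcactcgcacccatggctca
The window near opa held 1 NF-Y box and that near toy held 0. For the isolated members that held the Dref element, a minority of 26 of the 275, 3 windows are shown. They were chosen after their values were seen, as the 3 that met the same conditions.
CG9795, chr3R:4319573-4319673: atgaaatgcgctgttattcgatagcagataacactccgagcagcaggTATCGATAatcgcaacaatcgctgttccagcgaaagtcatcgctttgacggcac
Sgt1, chr3R:8305328-8305428: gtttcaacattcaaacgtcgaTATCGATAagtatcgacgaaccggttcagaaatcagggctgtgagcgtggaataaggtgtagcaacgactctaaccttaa
Josd, chrX:6261005-6261105: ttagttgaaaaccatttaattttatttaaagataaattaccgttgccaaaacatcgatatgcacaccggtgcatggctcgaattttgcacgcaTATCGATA
Each lay upstream of the TSS nearest to its summit, by 60 bp at CG9795, 104 bp at Sgt1 and 114 bp at Josd, and none held CCAAT in the bases shown. The wider window held CCAAT at CG9795. In the wider windows CCAAT was found at 35.2% of members and 38.1% of all thresholded peaks, AGAGAG at 15.2% and 17.3%, and TATCGATA at 4.49% and 4.13%.

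Distances to the nearest replicate 3 summit fell into a near and a far cluster. Of the 802 members, 503 (62.7%) lay over 100 and at most 300 bp from a replicate 3 summit, 24 lay 301 to 500 bp away, and 176 lay over 2000 bp away. The 275 isolated members had a median distance of 3079 bp, with a range from 507 to 69856 bp. Of the 163 adjacent members, 62.0% were secondary summits of a thresholded region that also held a stronger summit, against 4.73% of isolated members and 9.71% of the peaks found in all 3 lists. The rule has a threshold at 100 bp, and 83 members had a replicate 3 summit at most 10 bp beyond it, while 130 peaks counted as present had one at most 10 bp inside it. Of these, 97.6% and 97.7% were covered by a replicate 3 interval, and the median pooled signals were 348 and 371. Promoters held 44.6% of the 83 members and 52.3% of the 130 present peaks, so next to the limit the members' share was the lower of the pair.

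**Figure D1:**
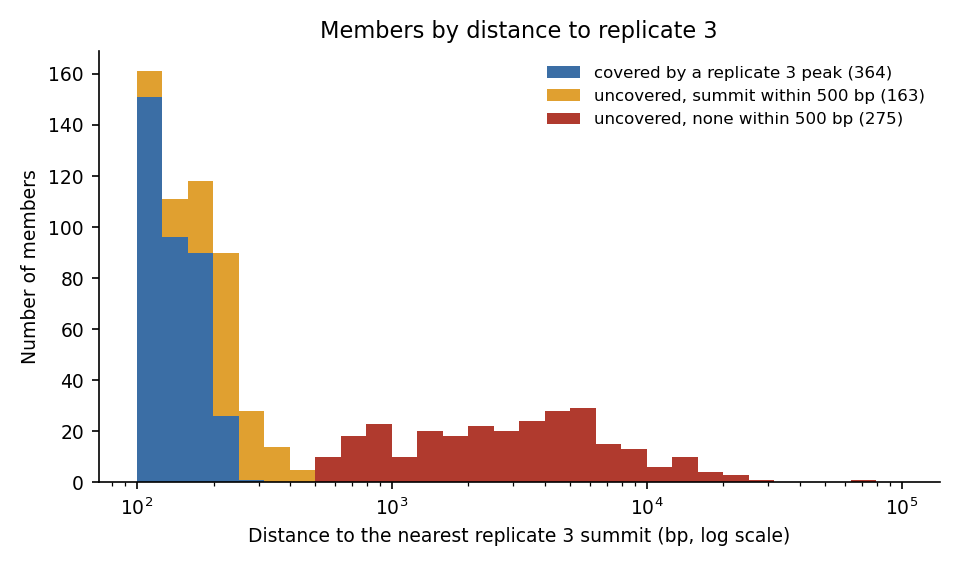
Number of members by distance from the member's summit to the nearest replicate 3 summit (bp, log scale), coloured by whether a replicate 3 interval covered the summit. The 364 covered members lie within 252 bp, and the 275 isolated members form a separate broad cluster with a median of 3079 bp.

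Members were weaker peaks than those found in all 3 lists, as far as the authors' signal values describe it. The pooled signal is the score of the authors' peak caller, with no stated unit, and the selection used the same data, so it is given with no test. Its median was 336 over the members, with a range of 246 to 7027, and 512 over the peaks found in all 3 lists. Peaks lacking a summit in replicate 1 alone had a median of 346, and those lacking one in replicate 2 alone had 332. Of the members, 77.4% fell in the weaker 50% of the thresholded set and 4.36% in its strongest 25%. Their summits had a median signal of 178 in replicate 1 and 127 in replicate 2, and replicate 1 was the higher at 83.0% of members and 88.6% of peaks found in all 3. The nearest replicate 3 summit had a median rank of 6020 of 30000 for covered members, 3033 for adjacent members and 8230 for isolated members, where it is a different peak. Each replicate list held 30000 peaks, with lowest signals of 22.8, 17.7 and 15.9 in replicates 1, 2 and 3, and the files hold no read counts, so the depth behind these lists is unknown.

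**Figure D2:**
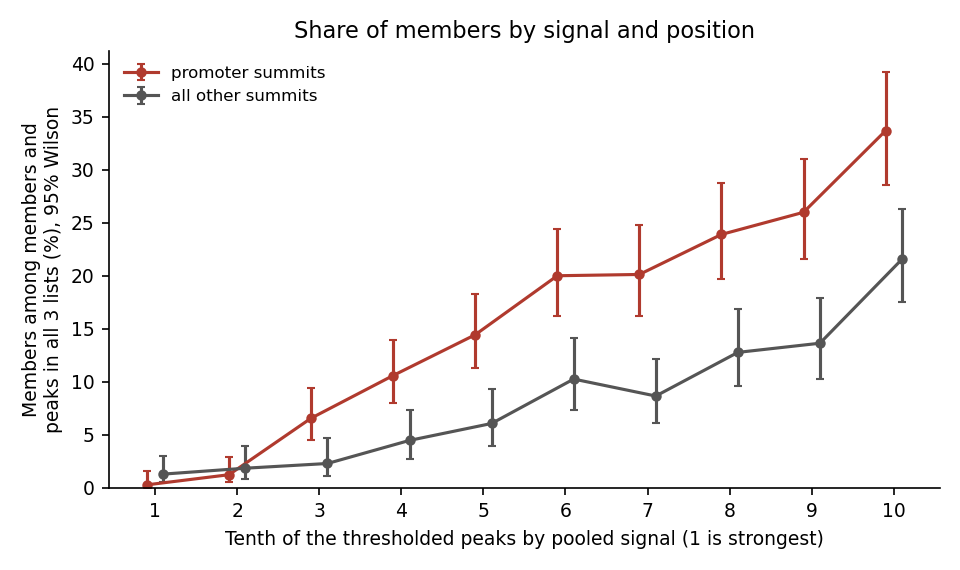
Share of members among members and peaks in all 3 lists (%, with 95% Wilson intervals that cover counting error only) in each of 10 bins of the thresholded set by pooled signal, for promoter summits and all others. The share was 0.282% of promoter summits in the strongest bin and 33.7% in the weakest, and from the third bin on it was higher at promoters than elsewhere.

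The strongest members were mostly not isolated. Of the 20 strongest by pooled signal, 12 were covered by a replicate 3 interval, 6 were adjacent to a replicate 3 summit and 2 were isolated. The strongest lay in an intron of ct, which encodes the homeodomain factor Cut of sensory organ development, 4888 bp upstream of the nearest ct TSS (X, 7626163 to 7627855). Its signal was 3050 in replicate 1 and 2236 in replicate 2. The nearest replicate 3 summit, 120 bp away, had a signal of 1963 and rank 201, close to ranks 235 and 222 in the other lists. All 3 libraries therefore had a strong peak at this place, and they differed in where its summit was placed.

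The second strongest member was intergenic, 6708 bp upstream of heca, the headcase gene known from imaginal cells and tracheal branching (3R, 30270660 to 30271781). Its signals were 2837 and 1961 in replicates 1 and 2, and the replicate 3 summit 103 bp away had 718. The third lay in an intron of kn, which encodes the EBF-family factor Collier, with 2581, 1103 and, 114 bp away, 807. All 3 of these replicate 3 summits ranked within the first 437 of their list. An intergenic member 1600 bp upstream of bab1, a transcription factor of limb and ovary patterning, had 937, 670 and 572, the last at a summit 154 bp away.

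At some members replicate 3 had the higher signal at its displaced summit. The intergenic member 2513 bp upstream of CG15629 had 714 and 801 in replicates 1 and 2, and the replicate 3 summit 234 bp away had 2544 and rank 155. In an intron of Xrp1, which encodes a stress-response bZIP factor, the values were 743, 171 and, 197 bp away, 1686. A member in an intron of simj, which encodes a p66 subunit of the NuRD complex, had 305, 231 and, 116 bp away, 522. The thresholded set held at least 1 other summit in the same region at each of these 3 places, and the member was not the strongest of its region.

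Other strong members lay at genes of signalling, trafficking and RNA regulation. The member in an intron of spi, 189 bp upstream of a TSS of this EGF receptor ligand gene, had 809, 568 and, 114 bp away, 371. At Gdi, the Rab GDP dissociation inhibitor gene, the values were 676, 366 and 102. In the 5′ UTR of lin-28, an RNA-binding repressor of let-7 maturation, they were 712, 311 and 125. Upstream of Sesn, the sestrin gene of stress and TOR signalling, they were 1136, 753 and 325. At spi, Gdi, lin-28 and Sesn the order of the lists was the same, with replicate 1 the highest and replicate 3 the lowest, as in the medians of the whole lists (61.6, 45.3 and 29.0), which were not scaled to each other. The remaining named members of the 20 lay nearest to CG6923, lama, CG2162, CG13321, tara, for and CG6428, and their replicate 3 summits were at most 213 bp away with signals of 58.3 to 279.

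**Figure D3:**
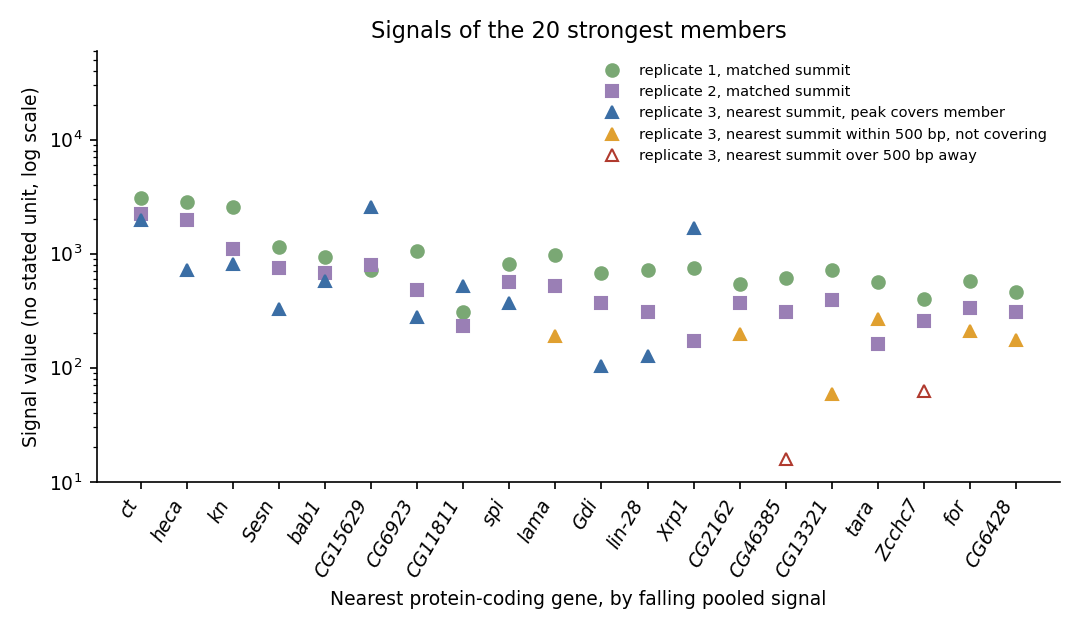
Signal values (log scale, no stated unit) of the 20 strongest members in replicates 1 and 2 and at the nearest replicate 3 summit, ordered by pooled signal and named by the nearest protein-coding gene. The replicate 3 symbol lies among or above the others at CG15629, CG11811, Xrp1 and tara, and furthest below them at CG46385, where the nearest replicate 3 summit is over 500 bp away.

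The 10 strongest isolated members were mostly at promoters of single genes or gene pairs. A pair of summits 147 and 347 bp upstream of CG46385 (2R, intergenic and in the 3′ UTR of cn) had 609 and 492 in replicate 1 and 307 and 226 in replicate 2. The nearest replicate 3 summit was 757 bp from the first, with a signal of 16.0 and rank 29829, close to the end of that list. The member between Zcchc7 and kud (3L, 16845155 to 16845457) had 397 and 257, with the nearest replicate 3 summit 3018 bp away. The member between Sec6, an exocyst subunit gene, and Atg7, which encodes the E1-like enzyme of autophagy, had 400 and 294, and the nearest replicate 3 summit was 15548 bp away. At lig, the lingerer gene, the values were 404 and 264, and at DEF8 they were 376 and 306. The members beside CG7810, CG30122 and CG12379 had 408, 391 and 330 in replicate 1. The exception to promoter placement was an intronic member in drn, 2028 bp from the nearest TSS, with 529 and 315. These genes were taken after the values were seen.

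Members lay at promoters more often than peaks found in all 3 lists. A summit was counted as a promoter summit within 500 bp of the TSS of a protein-coding transcript, and 535 of 802 members (66.7%) met this, against 3064 of 6048 (50.7%). The odds ratio was 1.95 (95% interval 1.67 to 2.28, two-sided Fisher's exact test, adjusted exact p = 5.33e-17 over 17 features). Stratified by 10 bins of pooled signal it was 2.16, so it was as large among peaks of like signal. Fewer members lay over 1000 bp from every TSS (26.2% against 41.8%, odds ratio 0.493, adjusted exact p = 5.33e-17) or between genes outside promoters (8.85% against 15.9%, odds ratio 0.512, adjusted exact p = 1.76e-07). Introns outside promoters held 20.2% of members and 28.6% of the others (odds ratio 0.631, adjusted exact p = 1.19e-06). This intronic difference had an odds ratio of 1.01 when presence was set at 50 bp, and in the stronger 50% of the peaks the call was lost (0.658, adjusted exact p = 0.0966). Peaks do not replicate the experiment, and the p-values cannot speak of the variation from one embryo collection to another.

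Peaks that lacked a summit in another replicate also lay mostly at promoters. Of the peaks that lacked a summit in replicate 1 alone, 63.5% were at promoters, and of those that lacked one in replicate 2 alone, 60.6%. Against these the members' odds ratios were 1.15 (95% interval 0.844 to 1.57, adjusted exact p = 0.738) and 1.30 (0.954 to 1.77, adjusted exact p = 0.260), neither past the threshold. Among the 17 features, members differed from the first group in GC content, which was above the median of the thresholded set at 49.6% of members and 37.4% of those peaks (odds ratio 1.65, adjusted exact p = 0.0236). They also differed from it in the E-box CACGTG, found at 2.99% of members and 0 of the 222 (adjusted exact p = 0.0377, Fisher's exact test). Over all thresholded peaks the shares were 49.6% for GC content and 2.42% for CACGTG, near those of the members. Against the peaks lacking replicate 2, 0 of 17 features passed at an adjusted p of 0.05 by Fisher's exact test, and 3 had an unadjusted p under 0.05 (intron, soft-masked base and GC content).

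Members also lay more often near the TSSs of close genes, a feature that only promoter summits can have. A summit was called head-to-head where TSSs of at least 2 genes and of both strands lay within 500 bp. Whether the genes diverged was not checked. This arrangement was found at 19.2% of members and 15.3% of peaks in all 3 lists (odds ratio 1.31, adjusted exact p = 0.0152). TSSs of at least 2 genes were found at 20.3% and 16.3% (odds ratio 1.31, adjusted exact p = 0.0152). Neither call held when presence was set at 50 bp (adjusted exact p = 0.377 and 0.543) or in the stronger 50% of the peaks (adjusted exact p = 0.141 and 0.0966). Among promoter summits alone, 154 of 535 members and 928 of 3064 peaks in all 3 lists were head-to-head. TSSs of at least 2 genes lay near 163 and 987 of these, so neither share was higher among promoter members. Peaks lacking replicate 1 alone and replicate 2 alone had head-to-head shares of 19.8% and 20.8%.

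Few members lay near tRNA genes, which RNA polymerase III transcribes, but their share was higher. A tRNA gene was within 500 bp of 8 of 802 members (0.998%) and 10 of 6048 peaks in all 3 lists (0.165%, odds ratio 6.08, 95% interval 2.39 to 15.5, adjusted exact p = 0.00173). The 8 summits touched 7 tRNA places, since a pair of them lay 108 and 309 bp from the same tRNA:Trp-CCA gene beside CG30122. The summit 25 bp from tRNA:Gln-TTG-1-3 had signals of 204 and 224 in replicates 1 and 2, and its nearest replicate 3 summit was 4683 bp away. The summit 65 bp from tRNA:Leu-CAG-1-3 had 176 and 95.7. Of the 8, 6 were uncovered. The call was lost with presence at 50 bp (odds ratio 2.28, adjusted exact p = 0.487) and in the stronger 50% of peaks (5.42, adjusted exact p = 0.149).

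None of the 7 short sequences searched passed the threshold between members as a whole and peaks in all 3 lists, but some did under another rule of presence. CCAAT was found at 282 members (35.2%) and 39.1% of the others (odds ratio 0.846, adjusted exact p = 0.0718). Within 10 bins of pooled signal its odds ratio was 0.975. AGAGAG (15.2% and 17.9%), ACACAC (18.7% and 19.9%), TATCGATA (4.49% and 4.07%), CACGTG (2.99% and 2.38%) and CAGCTG (11.6% and 9.94%) did not pass the threshold either, nor did CAGGTAG at 12 members. Nor did the X chromosome, with 19.3% and 19.1%. AGAGAG passed with presence at 50 bp (odds ratio 0.756, adjusted exact p = 0.00261), at 200 bp (0.670, adjusted exact p = 0.0116) and by interval (0.623, adjusted exact p = 0.000885). TATCGATA passed at 200 bp (1.79, adjusted exact p = 0.0116) and by interval (1.59, adjusted exact p = 0.0359). ACACAC passed at 200 bp (0.741, adjusted exact p = 0.0432) and by interval (0.712, adjusted exact p = 0.0118), and X by interval (1.33, adjusted exact p = 0.0160). Of all hexamers, with reverse complements merged, 0 (0%) were called at an adjusted p of 0.05 by Fisher's exact test with Benjamini-Hochberg adjustment, and 204 had an unadjusted p under 0.05. The lowest adjusted exact p was 0.0541, for TATCGA at 19.1% of members against 13.4% and for CCTCTC at 6.61% against 11.1%.

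Covered and uncovered members differed in where they lay. Promoters held 72.6% of the 438 uncovered and 59.6% of the 364 covered members (odds ratio 1.80, 95% interval 1.33 to 2.41, Fisher's exact test, adjusted exact p = 0.000829). Head-to-head promoters held 24.2% and 13.2% (odds ratio 2.10, adjusted exact p = 0.000829). Covered members were still at promoters more often than peaks in all 3 lists (odds ratio 1.44, adjusted exact p = 0.00826). At head-to-head promoters the covered share was 13.2% and that of peaks in all 3 lists 15.3% (adjusted exact p = 0.437).

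The X chromosome held 22.8% of uncovered and 15.1% of covered members (odds ratio 1.66, adjusted exact p = 0.0147). Peaks in all 3 lists had 19.1%. Neither class passed the threshold against them by Fisher's exact test (adjusted exact p = 0.0852 for uncovered and 0.152 for covered members). Beside these shares, replicate 3 listed 5169 of its 30000 peaks on X, while replicates 1 and 2 listed 6173 and 6057. Chromosome 4 had 221 peaks in replicate 3 against 397 and 349, and 15 of its 84 thresholded peaks were members (17.9%), the highest share of the 6 arms. The part of this list difference in the X share of the members was not tested. The other arms ranged from 9.86% on 2L to 12.6% on 2R.

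Uncovered members carried the Dref element more often and GA repeats less often than covered members. TATCGATA was found at 6.62% of uncovered and 1.92% of covered members (odds ratio 3.62, 95% interval 1.57 to 8.36, adjusted exact p = 0.00472, Fisher's exact test). Peaks in all 3 lists had 4.07%. AGAGAG was found at 11.6% and 19.5%, and ACACAC at 15.3% and 22.8%. CAGCTG was found at 13.5% and 9.34%, which did not pass the threshold (adjusted exact p = 0.108, Fisher's exact test). Against the 9.94% of peaks in all 3 lists the uncovered share of CAGCTG passed (odds ratio 1.41, adjusted exact p = 0.0336). All 36 members with TATCGATA were among the 535 promoter members. Among promoter summits alone, the element was at 9.12% of uncovered members, 3.23% of covered members and 7.60% of peaks in all 3 lists.

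The hexamers followed the same division. Against peaks in all 3 lists, 4 hexamers (0.192% of those tested) were more frequent at uncovered members. TATCGA was found at 24.2% against 13.4% (adjusted exact p = 1.30e-05) and ATCGAT at 19.6% against 10.8% (adjusted exact p = 0.000226), and CATCGA and ATCGAA were the other two. The 2 called lower (0.0962%) were CTCCCC (2.28% against 6.80%) and CCTCTC (5.48% against 11.1%). Between uncovered and covered members 2 hexamers were called (0.0962%), both more frequent in the uncovered, ATCGAT (19.6% against 7.42%, adjusted exact p = 0.000953) and TATCGA (24.2% against 12.9%, adjusted exact p = 0.0483). TATCGA and ATCGAT overlap each other and lie within the Dref element. CATCGA and ATCGAA share the bases ATCGA with it, and CTCCCC and CCTCTC are not part of it. Compared within promoters and within other sites by a Mantel-Haenszel test, 0 hexamers were called against peaks in all 3 lists, and TATCGA had a stratified odds ratio of 1.61.

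Shares of the isolated members are given with no test, because the division was chosen after values were seen. Of the 275, 79.3% were at promoters (95% Wilson interval 74.1 to 83.6%), 30.5% at head-to-head promoters (25.4 to 36.2%) and 26.5% on X (21.7 to 32.1%). TATCGATA was found at 9.45% (6.53 to 13.5%) and AGAGAG at 9.09% (6.23 to 13.1%). CAGCTG was found at 17.5% (13.4 to 22.4%), beside 9.94% of peaks in all 3 lists. GC content was above the median at 39.6% (34.0 to 45.5%), beside 50.4%. CCAAT was found at 37.1% (31.6 to 42.9%), an interval that includes the 39.1% of peaks in all 3 lists. The 163 adjacent members were close to the covered ones, with 61.3% at promoters, 13.5% at head-to-head promoters and 1.84% with TATCGATA. Intervals cover counting error only.

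**Figure D4:**
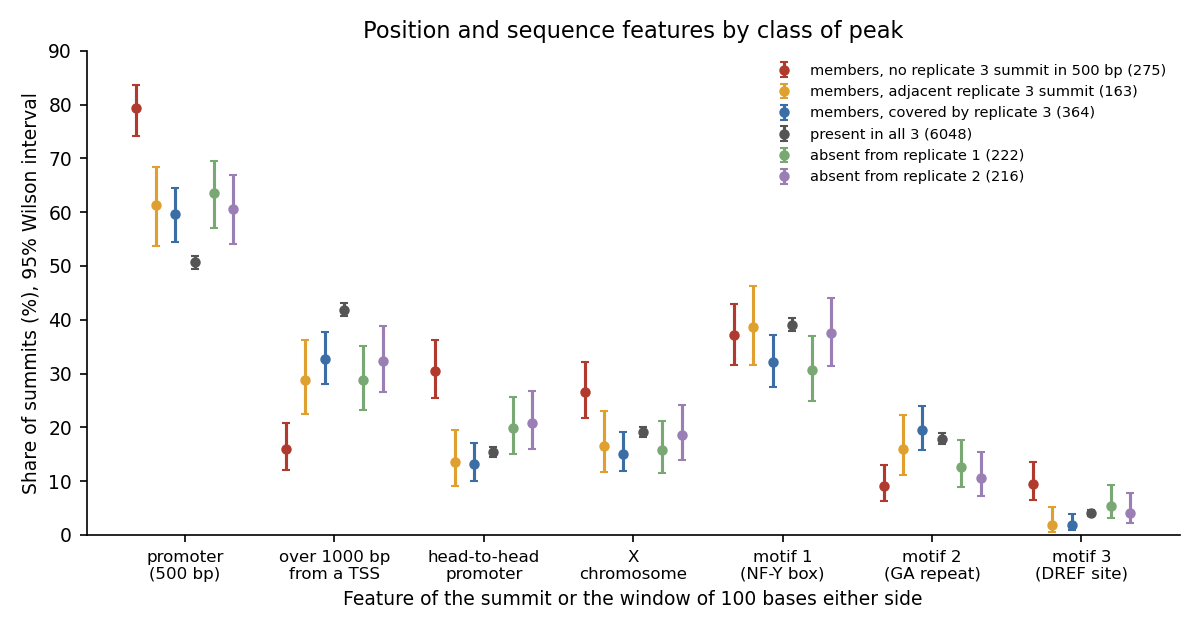
Share of summits (%) with each position or sequence feature in 3 classes of member and 3 classes of other thresholded peak, with 95% Wilson intervals; motif 1 is CCAAT, motif 2 AGAGAG and motif 3 TATCGATA. Isolated members have the highest promoter share (79.3%) and the lowest share over 1000 bp from a TSS (16.0%), and the classes overlap in CCAAT.

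Within promoters, member summits lay further downstream than those of peaks in all 3 lists and of peaks lacking replicate 1 alone or replicate 2 alone. This measure was chosen after values were seen. The members and the classes compared with them were all chosen by summit positions. None of these comparisons is independent of the selection, so they are given with no p-value. What the selection adds to the difference was not tested. The summit was downstream of the nearest TSS at 202 of 535 promoter members (37.8%) and at 21.4% of 3064 promoter peaks in all 3 lists (odds ratio 2.23, 95% interval 1.83 to 2.71). The share was 16.3% of 141 promoter peaks lacking replicate 1 (odds ratio 3.11) and 19.8% of 131 lacking replicate 2 (odds ratio 2.45). The 114 promoter summits among the 188 other thresholded peaks had a share of 43.0% and a median offset of 34 bp upstream, so this position was not particular to the members. Median offsets were 30 bp upstream for members and 98, 102 and 130 bp upstream for the 3 classes compared with them by odds ratio. The odds ratio against peaks in all 3 lists fell to 1.63 within bins of pooled signal and ranged from this to 2.45 over the 11 alternatives.

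Both kinds of member had this position, with 39.6% of covered and 36.5% of uncovered promoter members downstream. The matched summits of the members had median offsets of 34 and 41 bp upstream in replicates 1 and 2. At covered members the nearest replicate 3 summit lay further upstream, at a median of 123 bp. The replicate 3 summit was downstream at 24.9% of these. At peaks lacking replicate 1 the median offset was 102 bp upstream for the pooled summit and 192 bp for the nearest replicate 1 summit, with 16.3% and 36.2% downstream. At peaks lacking replicate 2 the medians were 130 and 102 bp upstream, with 19.8% and 33.6% downstream. Since the selection used the distance between these summits, the offsets per replicate are given with no test. Of the promoter members 37.9% lay in an untranslated region, against 22.7% of promoter peaks in all 3 lists.

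**Figure D5:**
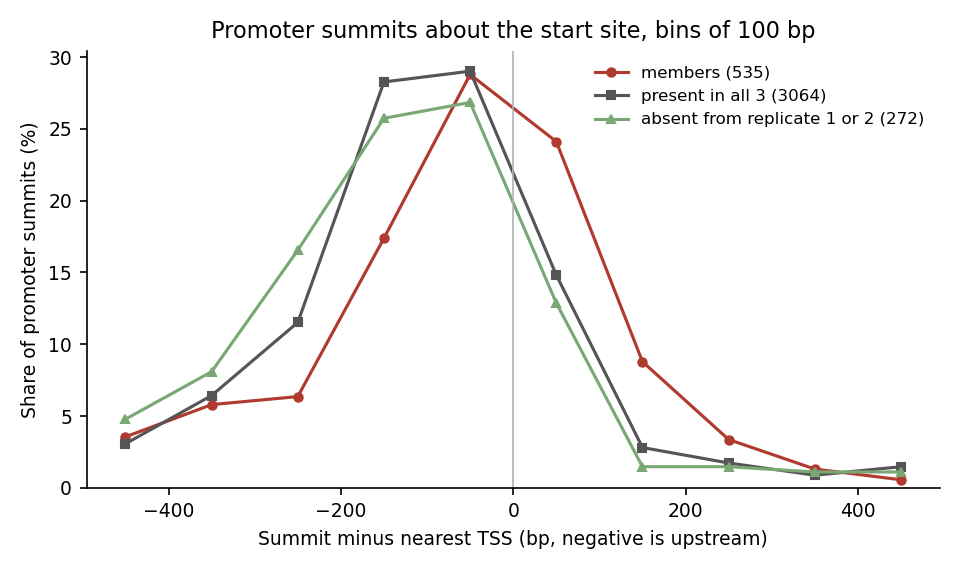
Share of promoter summits (%) in bins of 100 bp by signed distance from the nearest TSS (negative is upstream). The bin just downstream of the TSS holds 24.1% of members, 14.8% of peaks in all 3 lists and 12.9% of peaks lacking replicate 1 or 2, and members have the smallest share from 300 to 100 bp upstream.

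A member summit lay within 500 bp of a TSS of 683 of 13945 protein-coding genes (4.9%), 452 of which had no summit found in all 3 lists there. Of 30 matched segmentation and Hox genes, 28 had a peak found in all 3 lists and 1, the Hox gene Antp, a member. The member lay 82 bp upstream of an Antp TSS with signals of 151 and 76.3 in replicates 1 and 2, and a replicate 3 summit 108 bp away had 58.3. Of 20 neural and sensory factors 1 had a member, the epithelial and neuroblast factor gene grh. Of 15 mesoderm and heart factors 2 did (13.3%), eya and htl, which encode the Eyes absent phosphatase and an FGF receptor. Any thresholded peak lay at 93.3% of this list, against 30.6% of all genes. At eya the signals were 350 and 123, and the replicate 3 summit 199 bp away had 877 and rank 367.

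Signalling genes had members at 2 of 16 matched Notch pathway genes (12.5%) and 4 of 16 genes of the EGF receptor and Ras pathway, beside 4.9% of all genes, with no test made over lists. Both lists also had any thresholded peak more often, at 56.25% and 68.75% of their genes against 30.6% of all genes. The Notch genes were neur, an E3 ligase gene of Delta endocytosis, and E(spl)mdelta-HLH, a Notch target that encodes a repressor. At E(spl)mdelta-HLH the signals were 112 and 115 and the nearest replicate 3 summit was 3565 bp away. The EGF receptor genes were spi, the kinase gene Raf, the phosphatase gene csw and the adaptor gene drk. The member 47 bp upstream of a Raf TSS had 174 and 116, and the nearest replicate 3 summit, 1016 bp away, had 23.0. Of 22 Polycomb and trithorax genes 1 had a member, the chromatin remodeller gene kis. None of 14 architectural factor genes and none of 16 matched genes of endoplasmic reticulum stress had one, while 10 and 12 of them had a peak found in all 3 lists. The stress list held 17 names. Cnx99A, entered as Calnexin99A and so not matched, had a covered member 191 bp upstream of a TSS. None of the 3 NF-Y subunit genes had a member within 500 bp of a TSS, and the nearest thresholded summit was 31 bp from an Nf-YA TSS in a peak found in all 3 lists.

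Genes of large complexes gave the following counts. Of 92 genes named as cytosolic ribosomal protein genes 14 had a member (15.2%), and of 48 named as proteasome genes 7 (14.6%). These lists and that of mitochondrial ribosomal proteins were taken by gene name alone, and the 14 include RpLP0-like. These genes also had any thresholded peak more often, at 76.1% and 41.7% against 30.6% of all genes. For 10 of the 14 and all 7 of the proteasome genes, no peak found in all 3 lists lay at the same gene. At RpL26 the signals were 338 and 247, and the replicate 3 summit 168 bp away had 207. At RpL23 they were 175 and 183, with 157 at 113 bp, and at RpL18 223 and 214, with 159 at 107 bp. Of 73 mitochondrial ribosomal protein genes 4 had a member (5.48%), a share near that of all genes, and all 4 members were isolated. At mRpL16 the signals were 178 and 113 and the nearest replicate 3 summit was 9789 bp away, and at mRpL28 they were 194 and 170 with 3177 bp. Among the proteasome genes, the member between Prosbeta5 and dgo had 189 and 210 and was isolated. Those beside Rpn13 and Rpn9 were covered, with replicate 3 summits 149 and 118 bp away.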

How the data were processed

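The 3 samples form 1 group, grouped by their labels. Per the deposited notes, the authors called peaks on each replicate separately against 1 shared control, and again on the 3 pooled. The thresholded set was made from these by the irreproducible discovery rate. It equalled the top 7476 peaks of the pooled list. For the aligner, the caller and the threshold, no name or value is stated in the labels and files used. The deposited signal value is a score with no stated unit. The −log10 q-value deposited by the authors was not used. The deposited offset of the summit from the interval's start placed each peak. Read counts were not analysed here, so depth and any interval resting on it are unknown.

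Coordinates are 1-based on dm6, with the Release 6 sequence and Ensembl release 115 annotation. Features were compared by two-sided Fisher's exact tests, adjusted by the Benjamini-Hochberg method over 17 features or all hexamers. Stratified odds ratios are Mantel-Haenszel. Windows held 100 bases either side of the summit, and both strands were searched. Scripts used Python 3.11.15, SciPy 1.17.1 and pandas 2.3.3, and were tested on simulated data. The members, features and gene lists were chosen with earlier results of these data known. Genes named were those nearest the 20 strongest members and the 5 strongest over 1000 bp from every TSS, up to 3 per gene list and the NF-Y subunits. Other genes are named where the text says the choice came after seeing values, or because they lie beside these summits. Alternatives changed the match distance or rule, left out replicates or weak peaks, kept 1 summit per region, stratified by signal or promoter, and changed the promoter window.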

Additional observations from a re-analysis of the deposited data

How the results depend on the processing

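The promoter share kept its direction and its side of the threshold in all 12 alternatives, with odds ratios from 1.39 to 2.82. The downstream share kept its direction in all 11 of its own, which all rest on a selection by where summits lie and so give no independent test. The number of members depends on the rule. It was 1379 with presence at 50 bp, 437 at 200 bp, 526 when an interval had to cover the summit and 181 in the upper 50% by pooled signal, and 840 and 881 without replicates 1 and 2. Without replicate 3 the selection cannot be applied. The CCAAT odds ratio passed the threshold at 50 bp (0.806, adjusted exact p = 0.00261), and ranged from 0.832 to 0.846 without replicate 2 or 1, passing without replicate 2 only. It was 0.924 at 200 bp, 0.913 by interval and 0.975 within 10 bins of pooled signal, and passed in none of these. Hexamers called numbered 52 at 50 bp, 9 at 200 bp, 11 by interval and 2 with 1 summit per region.

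Calls gained under another rule of presence by X and by 3 of the short sequences are given above, and GC passed at 50 bp (0.807) and by interval (0.823) and soft-masked bases without replicate 2 (0.796). Directions that turned had odds ratios from 0.828 to 1.20 and no call in that setting. At 50 bp they were introns (1.01), X (0.947) and CAGGTAG (0.828), and by interval CACGTG (0.921). In the upper 50% they were X (0.964), soft-masked bases (1.12) and ACACAC (1.20). In signal bins they were X (0.950), GC (1.01), AGAGAG (1.03) and TATCGATA (0.983). In promoter strata they were GC (1.05) and TATCGATA (0.849). Against all other peaks GC was 1.00. Leaving out replicates 1 and 2 gave 0.985 to 1.04 for X and 0.975 to 1.01 for GC. The cause was not tested. No paired analysis was possible because there is 1 group. The unknown depth of each library limits what a missing summit shows.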
